A study of Homo sapiens with 12 samples.

Results

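The 100 rows with the highest mean raw count over all 12 libraries were taken from a table of 57756 rows, with ties broken by row name. The counts came from A549, a long-established line of human lung adenocarcinoma cells. Cells transfected with a scrambled siRNA, which has no intended target, gave 6 Control libraries. Cells transfected with an siRNA to SLC7A5, a cell-surface carrier of large neutral amino acids, gave the 6 libraries labelled SLC7A5_KD. Per the labels, RNA was purified from the same lysate as DNA, libraries were primed on poly(A) tails and sequenced as read pairs, and all 12 share a single batch label. Whether replicates were separate cultures is not stated in the labels, so a p-value here reflects only how these samples vary, which may be technical variation. Each library held between 1896100 and 2109699 counts.

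SLC7A5 was not lower in the libraries labelled SLC7A5_KD, so that group is named by its label throughout. In CPM (counts scaled to a fixed library total), SLC7A5 stood at 27.06, 26.23, 27.98, 31.86, 23.09 and 31.56 in Control replicates 1 to 6. In SLC7A5_KD replicates 1 to 6 it stood at 32.65, 27.97, 27.62, 27.05, 31.64 and 41.87 CPM. The groups overlapped, with a fold difference of 1.12 (95% interval 0.947 to 1.33) and an exact two-sided permutation p of 0.1948. SLC7A5 ranked 9679 of all rows and was not among the 100.

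The number of reads that a gene gathers grows with both the abundance and the length of its RNA, so an order by raw count is not an order by transcript number. Poly(A) libraries of cultured epithelial cells are usually led by short, abundant messages for ribosomal proteins, glycolysis, the cytoskeleton and the mitochondrial respiratory chain. Genes with very long introns, among them many neuronal adhesion and channel genes, are usually minor in such libraries. Long noncoding RNAs are transcripts without a protein product, and many stay in the nucleus.

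The 100 rows comprised 74 protein-coding genes and 26 long noncoding RNAs, of which 23 carry only a LOC number as a name. Of all 35754 features that passed the low-count filter, 55.2% were coding and 34.4% long noncoding. All 100 passed that filter, which their choice by high count made certain. None of 43 cytosolic ribosomal protein genes was among the 100. The highest of these, RPL37, ranked 4142 with a mean of 101 counts. None of 20 glycolytic and housekeeping genes was present either. PKM, the last enzyme of glycolysis, led that list at rank 7833 with 68.3 counts. Mitochondrially encoded RNAs began at rank 21655 with ND5, a subunit of respiratory complex I, at 26.4 counts. Of 12 lung epithelial markers none was among the 100, and the highest was ABCA3, a lipid transporter of alveolar cells, at rank 6227. Those 12 summed to 212 to 248 CPM over Control libraries and 207 to 233 CPM over those labelled SLC7A5_KD, and none was at 0 in any library. Markers that define leukocytes (8 genes) summed to 145 to 180 CPM in Control and 161 to 178 CPM in the other group. Markers of fibroblasts (8 genes) summed to 256 to 276 and 256 to 286 CPM. Genes of liver, red cells and olfactory neurons (8 genes), which A549 is not known for, summed to 141 to 151 CPM in Control and 126 to 147 CPM in the other group, and none was at 0 in any library. These sums cover lists of unlike size and gene length, so their order does not rank cell types. OR5A1, an olfactory receptor gene, ranked 3327, above RPL37.

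Per kb of exon (lengths from GENCODE release 29), some genes of very different known abundance had similar counts, though the lists also spread widely. GAPDH, a glycolytic enzyme, had 7.18 counts per kb. Of the 43 ribosomal protein genes, RPL37 was the highest with 12.4 and RPS9 the lowest with 0.343. The olfactory receptor genes OR2T10, OR1A1, OR4F5 and OR5A1 had 7.22, 7.37, 11.9 and 13.3 counts per kb. LYZ, the lysozyme of myeloid cells, was the highest leukocyte marker with 12.6, and CD3E the lowest with 6.27. Ranks and CPM below are therefore given as properties of the deposited counts. Whether they measure transcript abundance in A549 was not tested.

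The start regions of 75 of the 100 rows were found in the RefSeq promoter table (GRCh38.p14). Over the 250 bases before the start, the 65 coding rows found had a median of 21 CG dinucleotides, against 18 for 14755 tested coding genes. At least 10 CG dinucleotides occurred in 78.5% of those coding rows, in 70.4% of tested coding genes and in 51.9% of all 27305 promoters in the table. The 10 noncoding rows found had a median of 2, against 4 for 7423 tested noncoding rows. The letters TATAAA, searched on both strands, occurred in 4.62% of the coding rows and in 8.21% of tested coding genes. The 120 bases directly before 4 starts show the range from CG-rich to CG-free, 5′ to 3′ on the gene's strand, with every CG in capitals. They belong to a DNA replication gene, a growth factor receptor gene, a muscle gene and a neuronal gene.
RFC3, chr13:33818029-33818148, plus strand: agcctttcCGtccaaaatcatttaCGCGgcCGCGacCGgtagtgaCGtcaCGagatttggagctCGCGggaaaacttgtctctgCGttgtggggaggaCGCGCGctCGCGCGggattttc
EGFR, chr7:55018897-55019016, plus strand: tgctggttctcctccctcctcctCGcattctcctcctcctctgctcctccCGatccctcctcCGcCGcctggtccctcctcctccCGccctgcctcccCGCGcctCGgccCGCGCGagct
TTN, chr2:178807424-178807543, minus strand: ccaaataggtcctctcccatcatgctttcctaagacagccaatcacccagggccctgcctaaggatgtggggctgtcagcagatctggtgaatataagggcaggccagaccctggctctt
CNTN4, chr3:2098746-2098865, plus strand: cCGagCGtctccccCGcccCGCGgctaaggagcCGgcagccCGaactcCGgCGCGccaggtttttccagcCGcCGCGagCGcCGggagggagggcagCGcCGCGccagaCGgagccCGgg
RFC3, EGFR and CNTN4 held 17, 11 and 20 CG dinucleotides in these windows and TTN held 0. High counts were therefore found with both kinds of sequence before the start.

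Mean counts of the 100 rows ran from 506 to 1736, with a median of 661, against a median of 33.2 over all features tested. The highest row exceeded the lowest by a factor of only 3.43, and 12 rows had a mean over 1000. Single libraries gave between 440 and 2015 counts for any of the 100. Together they held 3.75% ± 0.00897 of all counts in Control and 3.76% ± 0.0211 in the libraries labelled SLC7A5_KD (SD, n = 6 each). Library values of that share lay between 3.73% and 3.76% in Control and between 3.72% and 3.78% in the other group. In every one of the 12 libraries, 80 of the 100 were among that library's own top 100, and the lowest rank reached by any of them was 138. Ranking each group alone gave top 100 lists that shared 98 rows.

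Enzymes of metabolism and RNA modification numbered 13 and included the row with the highest count. IMMP2L (chromosome 7, 110662644 to 111562492 in GRCh38.p14) encodes a peptidase subunit of the mitochondrial inner membrane. IMMP2L stood at 856.5, 874.8, 904.0, 836.2, 893.9 and 867.8 CPM in Control and at 855.2, 955.1, 858.9, 863.9, 873.9 and 909.7 CPM in the libraries labelled SLC7A5_KD. The groups overlapped, and replicate 2 of the labelled group was the highest of all 12. TRMT11 (chromosome 6, 125986540 to 126272343), a subunit of a tRNA guanosine methyltransferase, stood at 791.4, 772.4, 784.9, 817.9, 791.3 and 790.6 CPM in Control and at 804.3, 739.9, 784.7, 828.7, 789.0 and 766.8 CPM in the other group. Both the lowest and the highest TRMT11 value belonged to the labelled group. BCKDHB, a subunit of the branched-chain ketoacid dehydrogenase, had 502 ± 18.7 CPM among Control libraries and 509 ± 17.6 CPM among those labelled SLC7A5_KD (SD, n = 6 each). FTO, an RNA demethylase, had 467 ± 17.8 and 477 ± 21.8 CPM in the same order. Over the 13 rows the fitted difference had a median log2 of -0.003, with 5 rows above 0 and 8 below.

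Regulators of transcription, chromatin and replication numbered 16. SETBP1 (chromosome 18, 44680073 to 45068510), a SET-binding nuclear protein, stood at 831.0, 870.3, 864.1, 845.6, 875.5 and 866.3 CPM in Control and at 872.5, 873.6, 876.8, 832.3, 881.8 and 875.7 CPM in the libraries labelled SLC7A5_KD. In the labelled group, 5 libraries lay within 10 CPM of each other and replicate 4 stood below them. RFC3 (chromosome 13, 33818149 to 33977377), a subunit of the complex that loads the sliding clamp at replication forks, stood at 568.8, 586.2, 608.2, 625.2, 618.4 and 604.6 CPM in Control. In the other group RFC3 stood at 599.5, 601.5, 577.5, 599.6, 599.6 and 619.2 CPM, inside the Control range. HIVEP2, a zinc-finger protein that binds enhancers, had 540 ± 20.7 and 546 ± 18.5 CPM, and SMYD3, a lysine methyltransferase, had 497 ± 17.1 and 500.5 ± 13.5 CPM (Control, then labelled SLC7A5_KD, SD, n = 6 each). FOXO1, ESR1, THRB, SMAD2, SOX5 and HDAC4 were in the same group, with mean counts from 541 to 846.5. The 16 fitted differences had a median log2 of 0.013, with 10 above 0 and 6 below.

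Receptors and signalling proteins numbered 16, and PDE4D, which breaks down cyclic AMP, had the highest count among them. PDE4D (chromosome 5, 58969038 to 60522128) stood at 643.5, 634.2, 633.6, 614.8, 633.2 and 649.3 CPM in Control and at 659.3, 661.7, 673.7, 638.9, 656.1 and 672.6 CPM in the libraries labelled SLC7A5_KD. The labelled group was above the highest Control library in 5 of 6 libraries. PDE1C, a phosphodiesterase of cyclic AMP and cyclic GMP that calmodulin activates, had 519 ± 11.8 and 513 ± 15.8 CPM (SD, n = 6 each). EGFR (chromosome 7, 55019017 to 55211628), the epidermal growth factor receptor, ranked 50 and stood at 325.3, 313.8, 337.3, 341.6, 324.3 and 348.7 CPM in Control. In the libraries labelled SLC7A5_KD, EGFR stood at 325.5, 328.0, 330.0, 371.0, 327.0 and 357.5 CPM, with replicates 4 and 6 above every Control library. The 16 fitted differences had a median log2 of 0.008, with 9 above 0 and 7 below.

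Cytoskeletal, trafficking and protein turnover genes numbered 13. TTN (chromosome 2, 178525989 to 178807423), the giant spring protein of the sarcomere, stood at 776.8, 758.8, 790.6, 761.0, 757.4 and 736.2 CPM in Control and at 770.6, 787.3, 752.0, 755.7, 760.5 and 775.2 CPM in the libraries labelled SLC7A5_KD. All values of the labelled group lay inside the Control range. TTN was the only 1 of 18 giant sarcomeric and calcium channel genes among the 100. The 13 differences had a median log2 of 0.013, with 10 above 0 and 3 below. Neuronal adhesion, synapse and channel genes numbered 10, with a median gene span of 743 kb. CNTN4 (chromosome 3, 2098866 to 3057959), a neuronal cell adhesion protein, led them with 583 ± 10.4 CPM in Control and 580 ± 16.2 CPM in the labelled group (SD, n = 6 each). MAGI2, a synaptic scaffold, had 381 ± 8.49 and 393 ± 10.8 CPM. The 10 differences had a median log2 of 0.012, with 6 above 0 and 4 below. The remaining 6 coding rows, TMEM232, KIAA1328, NAALADL2, CCSER1, LARP4B and TMEM161B, had mean counts from 519 to 930.

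**Figure D1:**
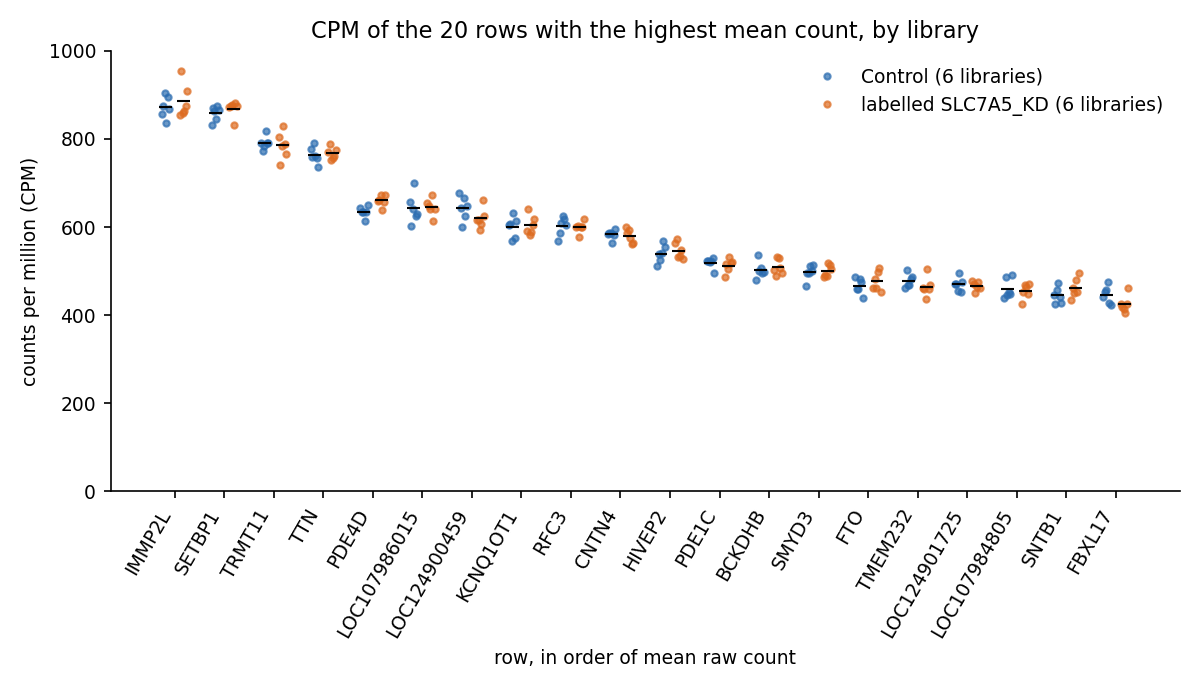
CPM of the 20 rows with the highest mean count in each library, with Control in blue, the libraries labelled SLC7A5_KD in orange and the mean of each group as a black bar. The groups overlapped in each of the 20 rows, from IMMP2L (means 872 and 886 CPM) to FBXL17 (446 and 425 CPM).

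The order of neighbouring rows held in every library at 3 points among the 11 highest. SETBP1 was above TRMT11, TTN above PDE4D, and CNTN4 above HIVEP2 in 12 of 12 libraries. IMMP2L was above SETBP1 in 8 of 12, LOC107986015 above LOC124900459 in 7 of 12, and KCNQ1OT1 above RFC3 in 7 of 12. FTO was above TMEM232, the row ranked just after it, in only 5 of 12. The order within such pairs did not exceed the spread between libraries.

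Long noncoding RNAs numbered 26, and their median span was 70.9 kb. KCNQ1OT1 (chromosome 11, 2608328 to 2699994), an imprinted nuclear RNA antisense to a potassium channel gene, stood at 605.4, 607.4, 569.4, 632.0, 575.3 and 614.8 CPM in Control. In the libraries labelled SLC7A5_KD, KCNQ1OT1 stood at 592.1, 640.8, 581.6, 589.4, 603.9 and 617.1 CPM, and the groups overlapped. It was the only 1 of 12 well-known long noncoding RNAs among the 100. NEAT1, the scaffold of paraspeckles, ranked 383 with 297 counts, and MALAT1, an RNA of nuclear speckles, ranked 10282 with 56.0 counts. LOC107986015 (chromosome 3, 60256281 to 60356752), whose function is not known here, had the highest count of the noncoding rows, with 642 ± 33.2 CPM in Control and 645 ± 19.9 CPM in the labelled group (SD, n = 6 each). LOC124900459 (chromosome 20, 8400268 to 8512505) followed with 643 ± 27.2 and 620 ± 23.2 CPM. Over the 26 rows the median log2 difference was -0.013, with 10 above 0 and 16 below.

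The 100 rows were long in the genome. Their RefSeq gene span had a median of 290 kb and ran from 39.8 kb for LOC112268061 to 1553 kb for PDE4D, against a median of 16.4 kb over tested features. A span over 100 kb occurred in 81 of the 100 and in 12.3% of tested features. Of 20 genes with very long introns or at common fragile sites, 4 were among the 100, namely IMMP2L, PDE4D, MAGI2 and NAALADL2. The other 16 ranked lower. FHIT, for example, ranked 5420 with 86.3 counts, and WWOX ranked 21961 with 25.9 counts.

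Counts per kb of exon put the coding rows on 1 scale for length. The exon union of GENCODE release 29 gave a length for 74 of the 74 coding rows, 2 of them under an older symbol. For the 100 as a whole it gave 76, too few for a comparison, so the noncoding rows were left out of this scale. No source used here names the annotation behind the counts. It was not this release alone, since only 2 of the 26 noncoding rows had a length in it. Values per kb may thus divide counts by exons other than those counted. The coding rows had a median of 19 RefSeq transcripts, against 4 for tested coding genes. Whether unmatched exon lengths raised their values was not tested. The values are the mean counts that chose the rows, divided by a length, and are given as a description with no test. Tested coding genes centred on a median of 11.4 counts for each kb of exon, with the 10th and 90th percentiles at 5.37 and 19.3. Over the 74 coding rows the median was 64.8 counts per kb, and 72 of them exceeded the median of tested coding genes by a factor over 2. IMMP2L had the highest value at 509 counts per kb over 3.41 kb of exon. RFC3 followed at 412 and LYPLAL1, a lysophospholipase-like protein, at 287 counts per kb. TTN was the lowest at 12.7 counts per kb over 119 kb of exon, and SMAD2, which carries TGF-beta signals to the nucleus, was next at 16.01. By these lengths, TTN lay close to the median coding gene per kb, while IMMP2L lay far above it.

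The noncoding rows could be set only against their gene span. Of the 26, 16 had between 10 and 15 counts per kb of span. Of the 15 with a single RefSeq transcript, 12 lay between 11.1 and 12.98 counts per kb of span, although their mean counts differed. KCNQ1OT1, whose GENCODE exon covers its whole 91.7 kb span, had 12.98 counts per kb. LOC124900459 had 11.1 counts per kb and LOC124901725 had 12.97. The other 3 single-transcript rows were LOC124900272 with 6.12, LOC107985962 with 2.08 and LINC02456 with 1.20 counts per kb of span. All 1007 tested noncoding rows with a single transcript and a span of at least 39.8 kb had a median of 0.298 counts per kb of span. The 12 rows were picked by their high counts from among such rows.

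**Figure D2:**
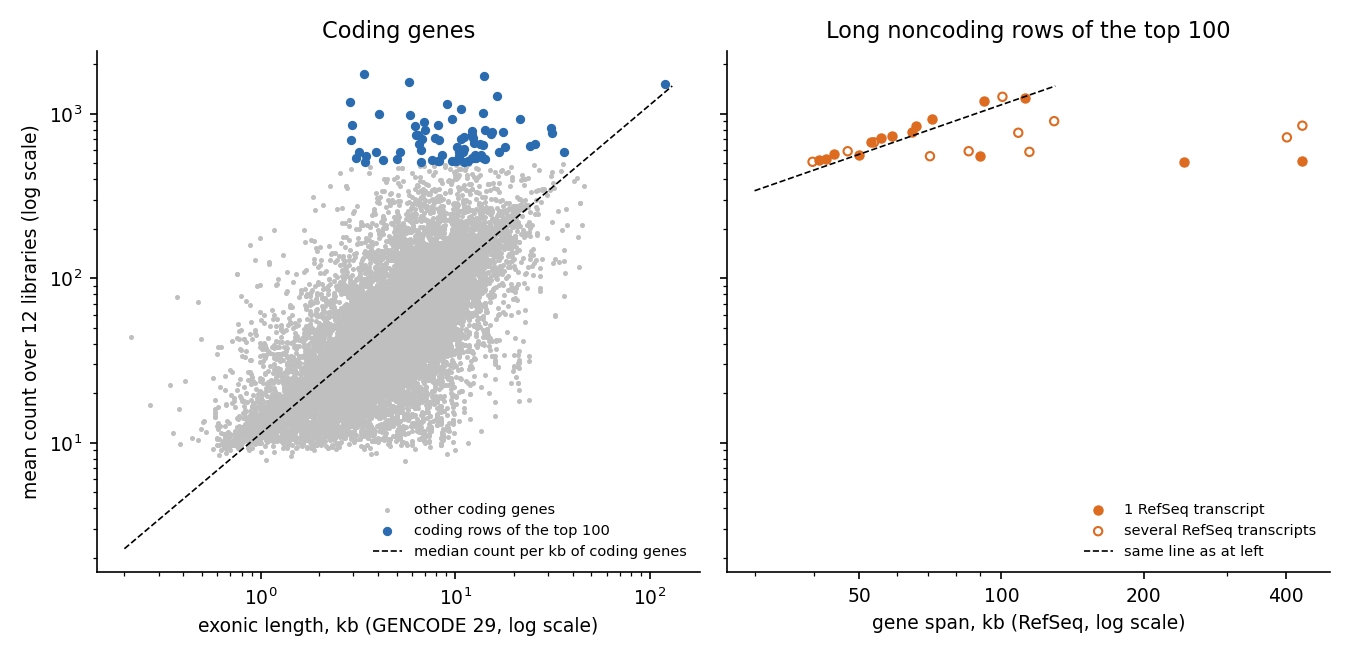
Mean count over 12 libraries against exonic length for coding genes (left) and against gene span for the 26 noncoding rows (right), on log axes, with the median count per kb of coding genes as a dashed line. TTN, at the far right of the left panel, lies near the line and the other coding rows of the top 100 lie above it, while most single-transcript noncoding rows lie near the same line.

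Overlapping annotation leaves the source of some counts uncertain. Another row of the table overlapped 83 of the 100 in the genome. Of 75 rows with a known strand, 47 overlapped a row on the opposite strand. No share over all features is set beside these counts, so they are not read as particular to the 100. No strand setting is given, so reads of such partners cannot be told apart. LOC124901725 and LOC124900232 lie inside the span of IMMP2L, and LOC107986350 lies inside that of PDE4D. LOC105377113 lies opposite to FHIT. NAALADL2 had another row of its own symbol with a mean of 2.92 counts.

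None of the 100 rows passed the test between the libraries labelled SLC7A5_KD and Control, and the fitted differences were small. In edgeR's quasi-likelihood test with Benjamini-Hochberg adjustment over all 35754 features, 0 of 100 had an adjusted p under 0.05, and the background was 0%. The adjusted p was 0.998 for each of the 100, and the smallest over all features was 0.933. The rule used the mean over both groups, so the difference between groups did not choose the rows. At an unadjusted p under 0.05 there were 4 of 100, against 4.58% of all features. Of these 3 were higher, against 2.32% of all features, and 1 was lower, against 2.27%. In 0 of 100 were the 2 groups of CPM values fully apart, against 0.185% of all features. These shares were close to the background. In bulk libraries such as these, a change in a few cells and a small change in all cells cannot be told apart.

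The fitted fold differences of the 100 ran from 0.952 to 1.07. On the log2 scale their median was 0.007, with 53 above 0 and 47 below, and the median over all features was -0.001. The median size of the log2 difference was 0.025, against 0.097 over all features, and the median standard error was 0.038, against 0.151. Both fall as counts rise, and the rows were chosen by high counts. The 95% interval of the fold lay within 1.1-fold in either direction for 90 of the 100 and within 1.2-fold for all 100. The same held for 1.08% and 15.6% of all features. The outermost bounds over the 100 rows were 0.896 and 1.14, so larger differences lay outside the interval of each single row, with no correction for 100 intervals.

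The rows with the smallest unadjusted p show how small the differences were. ZNF462, a zinc-finger protein of chromatin, stood at 354.3, 365.3, 364.7, 337.4, 344.3 and 331.2 CPM in Control and at 370.5, 364.5, 381.6, 384.8, 385.5 and 362.2 CPM in the libraries labelled SLC7A5_KD. The labelled group was above the highest Control library in 4 of 6 libraries. The fold was 1.07 (95% interval 1.02 to 1.13), with a log2 difference of 0.10 ± 0.034 (SE) and an edgeR adjusted p of 0.998. PDE4D had a fold of 1.04 (1.002 to 1.08) with the same adjusted p in edgeR. STXBP4, a syntaxin-binding protein, stood at 324.3, 279.5, 313.4, 319.6, 294.0 and 306.9 CPM in Control and at 316.1, 359.3, 326.9, 344.4, 317.0 and 296.8 CPM in the labelled group. The groups overlapped, and the fold was 1.07 (1.002 to 1.14), with an edgeR adjusted p of 0.998. TRIO, an exchange factor for small GTPases, and LOC105370461 came next among the higher rows, with log2 differences of 0.064 and 0.058.

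ZNF516, a zinc-finger transcription factor, had the smallest unadjusted p among the lower rows. It stood at 367.4, 337.5, 354.9, 347.8, 377.2 and 365.2 CPM in Control and at 337.8, 346.5, 339.7, 350.0, 329.6 and 342.3 CPM in the libraries labelled SLC7A5_KD. A single library of the labelled group, replicate 5, was below the lowest Control library. The fold was 0.952 (95% interval 0.906 to 1.00), with an edgeR adjusted p of 0.998. FBXL17 and PELI2, a pair of ubiquitin ligase components, had log2 differences of -0.069 each, LOC107985467 had -0.062 and LOC124900459 had -0.053. None of these 4 passed the test.

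**Figure D3:**
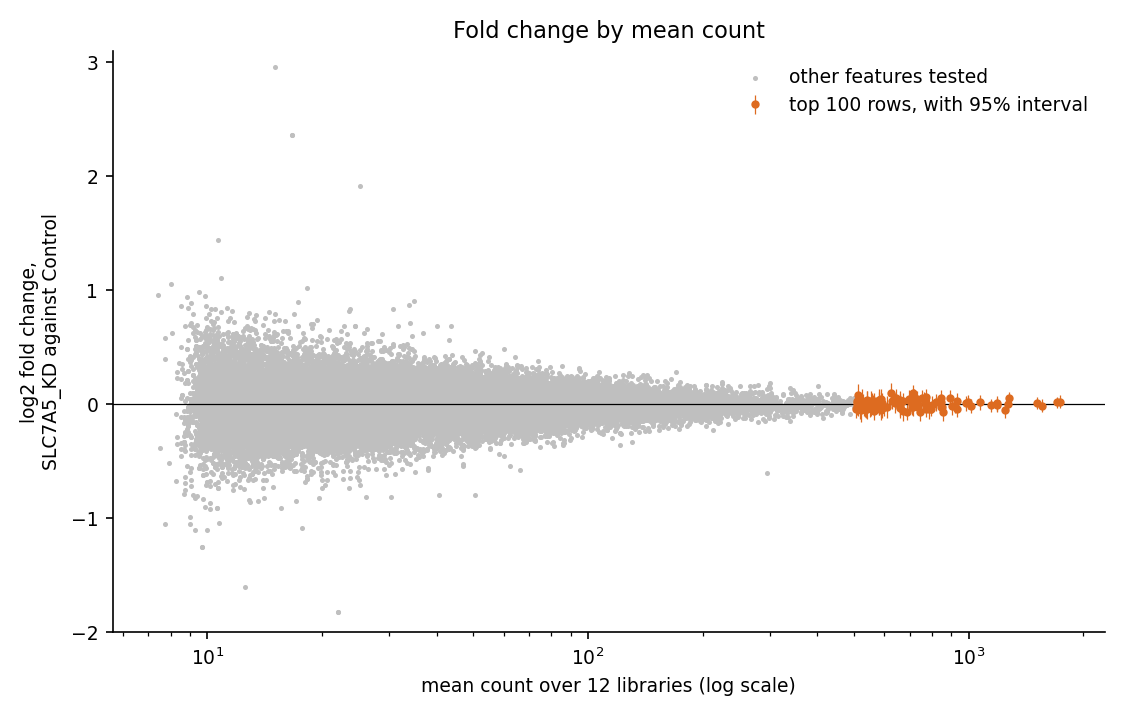
Log2 fold change of the libraries labelled SLC7A5_KD against Control by mean count (log scale) for features tested, with the 100 rows in orange and their 95% intervals as bars. The 100 rows lie between -0.071 and 0.101, in the narrow end of the cloud at high counts.

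The spread between libraries was somewhat above counting noise, and by the medians below the excess grew with the count. With counts scaled to the mean library total, the variance within groups divided by the mean has a value of about 1 where only counting noise acts. Its median over the 100 rows was 1.31, and single rows ran from 0.186 to 3.70. Of the 100, 33 were below 1 and 16 were over 2. The median was 1.08 for rows with 20 to 50 counts, 1.18 for 50 to 100, 1.21 for 100 to 200 and 1.23 for 200 to 500. The coefficient of variation falls as counts rise, with medians of 18.4%, 13.1%, 9.56% and 6.65% in the same 4 classes of count, and its median over the 100 was 4.27%. LINC02456 had the highest ratio, standing at 301.7, 265.9, 228.0, 243.9, 267.9 and 281.6 CPM in Control replicates, and at 238.4, 260.7, 258.3, 259.7, 292.2 and 260.7 CPM in the libraries labelled SLC7A5_KD. The range of its Control libraries contained all of the labelled group. STK39, a kinase that activates ion cotransporters, had a ratio of 3.25 and THRB, a thyroid hormone receptor, had 3.00. IKZF2, a lymphoid zinc-finger factor, had 2.70 and LOC124906103 had 2.53. CHD6, a chromatin remodelling ATPase, had the lowest ratio at 0.186, with 412.5, 402.6, 409.3, 409.5, 406.4 and 408.9 CPM in Control and 398.2, 410.5, 387.8, 398.0, 399.2 and 390.0 CPM in the labelled group. SGMS1, a sphingomyelin synthase, had 0.396, PDE4D 0.458, MAGI2 0.483 and LYPLAL1 0.525. Over the 100 rows, the median chi-square per degree of freedom was 1.39 for the 30 pairs of libraries of the same group and 1.32 for the 36 pairs of libraries of different groups.

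**Figure D4:**
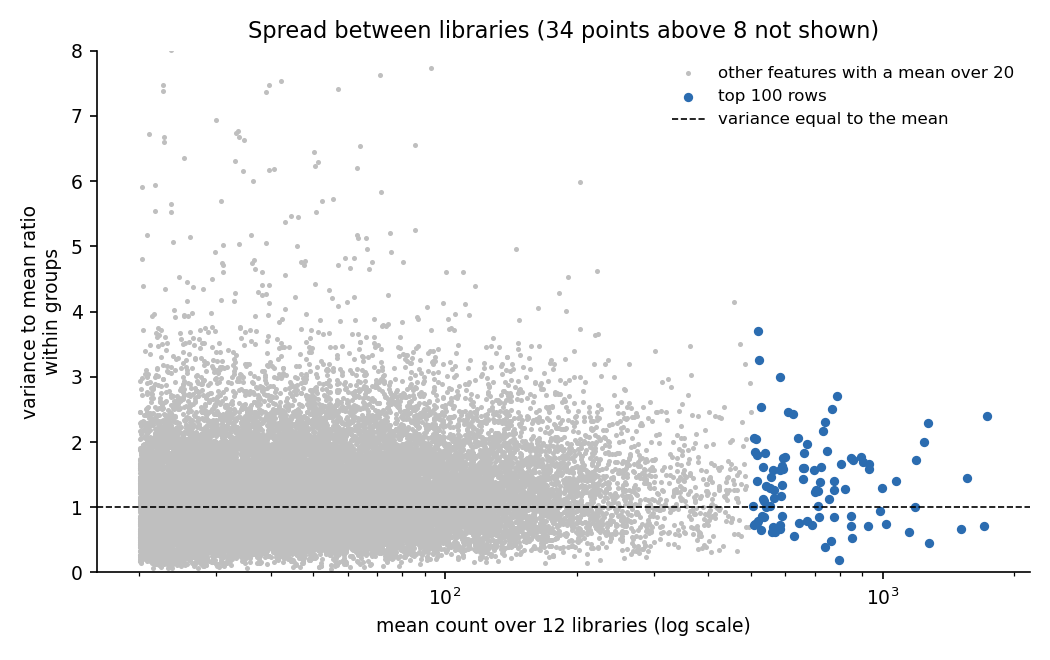
Variance to mean ratio of counts within groups against the mean count (log scale), for the 100 rows in blue and other features with a mean over 20 in grey. The 100 rows scatter on both sides of the dashed line of equal variance and mean, from 0.186 for CHD6 to 3.70 for LINC02456.

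Counts did not break at the edge of the list. The last 5 rows inside were LOC112268061, SPPL3, TBC1D19, PAG1 and LOC107985962, with mean counts of 511, 510.1, 509, 508.5 and 506. The next 5 outside were RFX7, KCNMA1, GLIS3, ATG7 and INTS6, with 501, 499, 496, 488 and 487. Chromosome 18 held 6 of the 100, where 1.85% of tested features lie, and chromosome 2 held 12, where 7.02% lie. Others went the other way, with 7 on chromosome 1, where 9.63% lie, and 1 on chromosome 17, where 5.04% lie. These chromosomes are examples, and the shares take no account of gene span.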

How the data were processed

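The authors deposited 1 table of whole-number counts, 1 column per library, which served as raw counts. The build GRCh38 and the tools RSEM 1.3.1, Bowtie2 and DESeq2 1.4.5 are named per the submitters' processing notes. Their roles, the annotation, a strand setting and how whole numbers were made are not given in the sources used here. Each of the 12 columns was matched to a sample by name, and 0 columns belonged to no sample. Depth was 1896100 to 2109699 counts per library, and intervals cover the spread between libraries as edgeR models it.

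CPM used library totals. The test was the robust quasi-likelihood fit of edgeR 4.0.16 (glmQLFit, glmQLFTest), with TMM and filterByExpr, in R 4.3.3 over the whole table, with group as the only term. SLC7A5 was also tested with an exact permutation test of mean CPM. Alternatives were DESeq2 1.42.0, limma 3.58.1 voom, other scalings and filters, the replicate number as a block, rows summed by symbol and leaving out each library. The fit was tested on simulated data. Gene spans, biotypes and promoters came from RefSeq (GRCh38.p14) and exon lengths from GENCODE release 29.

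The 100 rows, the 19 gene lists and the design were chosen with earlier results of these data known, and the 7 role groups were assigned once the rows were known. Genes were named by rule: SLC7A5, the 20 highest rows, 5 rows on each side of the threshold, the 5 smallest unadjusted p in each direction, the 5 highest and lowest in spread and in counts per kb of exon, list members among the 100, and the 2 highest of other lists. EGFR and any other gene outside this rule were chosen after their values were seen. Every list not described in the report (cytoskeleton, NRF2 targets, short RNAs, of which none was tested, spectrin repeat, dynein, extracellular, LDL receptor family, chromatin and ubiquitin ligase giants) had 0 members among the 100 and 0 past the test. Among them FAT3 came closest, at rank 115.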

Additional observations from a re-analysis of the deposited data

Results flagged for a closer look

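In 168 groups of 6 libraries (named genes, CPM), 8 had a library whose gap to its nearest neighbour exceeded Dixon's 95% critical value for the ratio of gap to range, where chance gives about 8.4. Among the 100 rows, SETBP1 stood at 832.3 CPM in SLC7A5_KD replicate 4, against 872.5 to 881.8 in the others of its group. PDE1C stood at 496.3 CPM in Control replicate 6, against 519.6 to 530.6. THRB stood at 342.8 CPM in SLC7A5_KD replicate 5, against 285.4 to 297.3. Outside the 100, GLIS3 stood at 228.5 CPM in Control replicate 2, against 246.6 to 257.1, and RPL15, a ribosomal protein gene, at 60.8 CPM in SLC7A5_KD replicate 1, against 38.9 to 45.4. PGK1, a glycolytic kinase, stood at 26.4 CPM in Control replicate 3, against 33.3 to 36.1. VIM, an intermediate filament gene, stood at 22.6 CPM in Control replicate 1, against 10.4 to 14.9, and AKR1C1, a reductase, at 25.8 CPM in SLC7A5_KD replicate 5, against 39.1 to 45.5. The 8 were spread over 7 libraries.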

How the results depend on the processing

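Under each of 21 alternatives to the edgeR fit, 0 of the 100 rows had an adjusted p under 0.05. Over all features the count was 0 under edgeR's other scalings and filters, summed rows and DESeq2 (885 at an unadjusted p under 0.05). It was 1 with limma voom (CNTF), and 0 to 2 when 1 library was left out (CNTF and ZFP91-CNTF without Control replicate 4). Of the 100 rows, 7 were at an unadjusted p under 0.05 with limma voom, beside 1736 of all 35754 features. With rows summed by symbol there were 2, beside 1608 of 34811, and the main fit gave 4, beside 1638 of 35754. Leaving out 1 library gave 2 (without SLC7A5_KD replicate 3, beside 1663 of 36334 features) to 7 (without Control replicate 5, beside 1689 of 36361). The median log2 difference of the rows, 0.007, ranged from -0.000693 to 0.00668 when 1 library was left out, below 0 without Control replicate 2 and without SLC7A5_KD replicate 2. The cause was not tested. The log2 difference kept its sign under all 21 alternatives in 65 rows and changed it in at least 1 in 35, none of which had a size over 0.039. For SLC7A5 it lay between 0.07 and 0.21. Ranking by CPM, by 1 group, by summed symbols or without 1 library kept 97 to 100 of the 100 rows, and the top 50 held 50 of them. With the replicate number as a block, 2 of the 100 rows were at an unadjusted p under 0.05, beside 1565 of all 35754 features. None was at an adjusted p under 0.05. Deviations of libraries from the level of their own group were correlated between the groups. Over all tested features, same-numbered libraries correlated at -0.011 to 0.023 and other pairs at -0.029 to 0.035. Over the 100 rows the values were -0.131 to 0.128 and -0.259 to 0.232 in the same order. Of 6 Control libraries, 1 correlated best with its own number. No pairing by number was seen. The check cannot exclude it, because counting noise makes up most of the spread and would hold such correlations near 0. Effective library sizes for the spread were added after seeing the data. At 440 to 2015 counts per row and library, counting noise limits single values.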
